A study of Mus musculus with 18 samples.

Results

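The genes described here are the matrix metalloproteinases (Mmp), the ADAMTS proteases (Adamts) and their inhibitors, the tissue inhibitors of metalloproteinases (Timp), in mouse islets of Langerhans. They were taken by gene symbol alone, with the ADAMTS-like genes left out, which gave 46 of the 53801 mouse genes in the deposited count tables, namely 23 Mmp, 19 Adamts and 4 Timp genes. Bulk RNA-seq libraries came from whole islets isolated at 5 weeks of age from mice fed normal chow. The 4 groups were male mice heterozygous for MafA S64F (male S64F/+, 4 libraries), male wild-type mice (male WT, 4 libraries), female MafA S64F heterozygotes (female S64F/+, 5 libraries) and female wild-type mice (female WT, 5 libraries). MafA is a beta cell transcription factor that activates the insulin genes. The title of the study names maturity-onset diabetes of the young and a male bias in connection with the variant. The strain, the way the allele was made and whether each library came from 1 animal or a pool are not stated in the labels, so the p-values below measure the spread between these libraries.

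Matrix metalloproteinases are zinc enzymes that are made as inactive proforms and cut collagens, gelatins, elastin, proteoglycans and many cell-surface proteins. ADAMTS enzymes are secreted relatives with thrombospondin repeats. Some cut hyalectan proteoglycans such as versican and aggrecan, others trim procollagens, and others act on fibrillin microfibrils or cartilage matrix proteins. TIMPs bind the active site of matrix metalloproteinases, and Timp3 is held in the matrix and inhibits ADAMTS enzymes as well. In the pancreas these genes are known mostly from fibroblasts and stellate cells, endothelium and macrophages around and inside the islet, and the islet basement membrane is one of the structures they turn over.

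Library totals ranged over 29017873 to 61607799 counts in male S64F/+ and 19317971 to 40450921 in male WT, and over 21833230 to 57390790 in female S64F/+ and 23527231 to 108659014 in female WT. Values are given as CPM, counts scaled to a common effective library size. A gene was called when the adjusted p of edgeR's quasi-likelihood test was under 0.05, with Benjamini-Hochberg adjustment over all 18364 genes tested, and log2 fold changes carry their standard errors (SE). Mafa itself averaged 197 ± 52.3 CPM in male S64F/+ and 905 ± 80.8 CPM in male WT islets (SD, n = 4 each), and 160 ± 49.8 CPM in female S64F/+ and 639 ± 117 CPM in female WT islets (SD, n = 5 each). The hormone genes that define islets were abundant in all groups, with group means of Ins2 at 91640 CPM or more. In bulk RNA, fewer cells of a type and less RNA per cell cannot be told apart.

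In male islets most of the protease and inhibitor genes were higher in S64F/+. Of the 34 genes that passed the filter on low counts, 28 were called higher in male S64F/+ than in male WT, where 15.4% of all genes tested were, and 0 were called lower, where 12.3% of all genes were. The median log2 fold change of the 34 genes was 1.64, beside -0.03 for all genes tested. The male ranges did not overlap for 28 genes, all of them higher in S64F/+, beside 17.8% of all genes in that direction and 17.3% in the other. The uncalled 6 were Mmp9, Mmp16, Mmp24, Adamts6, Adamts18 and Adamts20, and Adamts4 was called although its male ranges overlapped. The filter matters to this count, because Adamts3, Adamts14, Mmp7 and Mmp9 passed it only through the male S64F/+ libraries; of the other 30 genes, 25 were called higher. Leaving out each library in turn kept 23 of the 28 calls in all 18 refits, and the exceptions are named with their genes.

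In female islets 7 of the 34 genes were called in either direction (20.6%), near the 21.2% of all genes tested. Female S64F/+ islets had 6 called higher than female WT, where 10.2% of all genes were, and 1 called lower, where 11.0% of all genes were. The median log2 fold change of the 34 genes was 0.39, beside 0.02 for all genes, and the female ranges did not overlap for 6 genes, all higher in S64F/+, beside 5.28% of all genes in that direction and 6.36% in the other. Adamts17, Mmp11, Mmp12, Timp1 and Timp3 were called higher in both sexes, Adamts18 was called higher in females and not in males, and Mmp16 was called lower in females. The difference between the sexes was tested as the male minus the female genotype effect, which was called positive for 8 of the 34 genes, where 2.87% of all genes were, and negative for 0, where 1.60% of all genes were (4.47% in either direction). Those 8 were Mmp11, Mmp15, Mmp23, Adamts1, Adamts7, Adamts9, Adamts15 and Timp3, and 5 genes were called without male WT replicate 4.

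**Figure D1:**
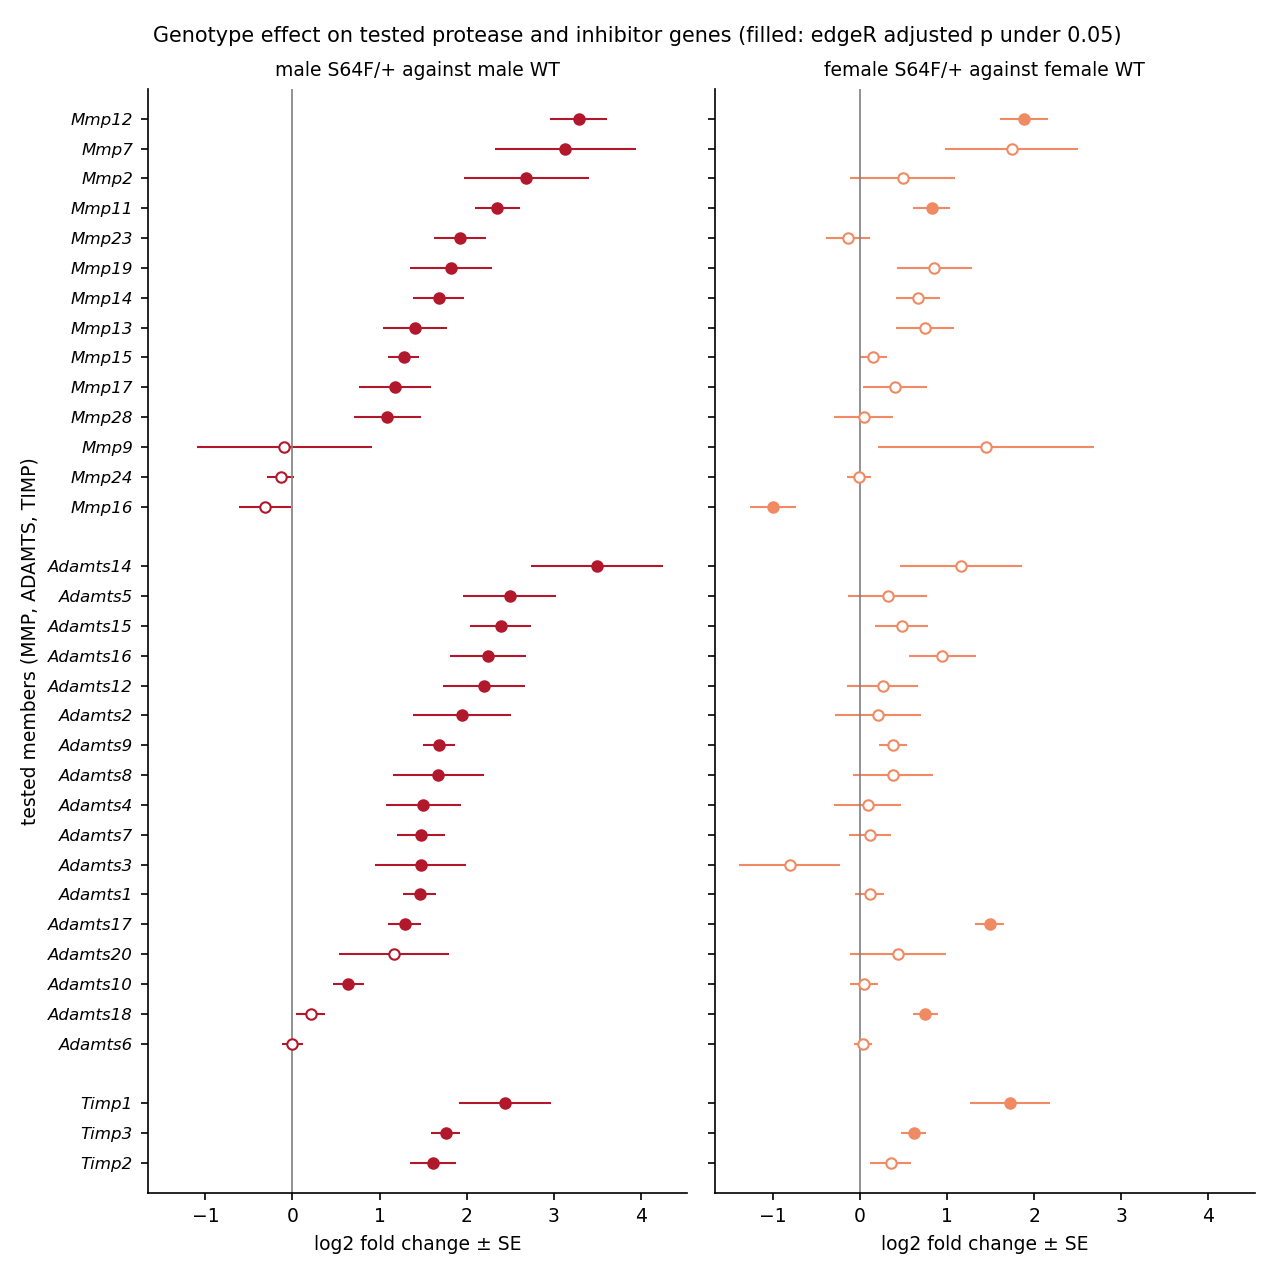
Log2 fold change of S64F/+ against WT (x axis, with SE) for each of the 34 tested genes, in males on the left and in females on the right, with filled points for genes called by edgeR at an adjusted p under 0.05. In males 28 points are filled and lie right of 0, and in females 7 are filled, of which Mmp16 lies left of 0.

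The plot of log2 fold changes shows the contrast between the sexes gene by gene: the male column stands mostly to the right of the female one, and the 5 genes in the reverse order are Mmp9, Mmp24, Adamts6, Adamts17 and Adamts18. For none of these 5 was the difference between the sexes called.

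The 5 genes called higher in both sexes, and Mmp7, which sits in the same gene cluster as Mmp12, are shown with the 250 bases before the most upstream RefSeq start on GRCm38.p6, printed 5′ to 3′ on the strand of the gene, since these sequences differ in the control elements that Mmp genes are known for. Capitals mark matches, on either strand, to TGANTCA (the AP-1 site), TGCTGA (a half-site of the MAF recognition element), TATAAA (the TATA box), AGGAAG (an ETS site) and GGGCGG (the GC box). The windows lie at chr9:7344147-7344396 (+) for Mmp12, chr9:7691840-7692089 (+) for Mmp7, chr10:75932503-75932752 (-) for Mmp11, chrX:20869916-20870165 (+) for Timp1, chr10:86300162-86300411 (+) for Timp3 and chr7:66839485-66839734 (+) for Adamts17.
Mmp12: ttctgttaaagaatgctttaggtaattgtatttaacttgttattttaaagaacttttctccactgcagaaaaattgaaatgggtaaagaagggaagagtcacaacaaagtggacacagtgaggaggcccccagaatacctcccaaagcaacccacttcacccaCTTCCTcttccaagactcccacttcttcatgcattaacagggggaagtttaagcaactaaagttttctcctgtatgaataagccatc
Mmp7: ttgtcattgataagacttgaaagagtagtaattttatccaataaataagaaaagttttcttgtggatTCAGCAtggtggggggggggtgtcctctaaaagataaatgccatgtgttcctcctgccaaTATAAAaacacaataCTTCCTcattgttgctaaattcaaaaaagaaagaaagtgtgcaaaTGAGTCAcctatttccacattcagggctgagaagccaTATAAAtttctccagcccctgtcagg
Mmp11: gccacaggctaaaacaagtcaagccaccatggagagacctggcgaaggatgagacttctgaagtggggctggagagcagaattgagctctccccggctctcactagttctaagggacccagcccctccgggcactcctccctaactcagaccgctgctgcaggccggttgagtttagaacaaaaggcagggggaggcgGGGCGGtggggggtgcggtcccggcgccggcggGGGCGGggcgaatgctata
Timp1: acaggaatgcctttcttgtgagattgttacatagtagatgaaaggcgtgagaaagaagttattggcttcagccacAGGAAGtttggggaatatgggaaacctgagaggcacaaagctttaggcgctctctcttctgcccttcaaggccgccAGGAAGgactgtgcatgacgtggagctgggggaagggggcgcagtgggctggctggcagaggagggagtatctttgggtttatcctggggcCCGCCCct
Timp3: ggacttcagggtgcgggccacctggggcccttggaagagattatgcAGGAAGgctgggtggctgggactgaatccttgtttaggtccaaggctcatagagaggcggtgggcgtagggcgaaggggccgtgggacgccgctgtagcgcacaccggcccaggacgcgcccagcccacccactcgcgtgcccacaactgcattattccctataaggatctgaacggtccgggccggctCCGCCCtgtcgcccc
Adamts17: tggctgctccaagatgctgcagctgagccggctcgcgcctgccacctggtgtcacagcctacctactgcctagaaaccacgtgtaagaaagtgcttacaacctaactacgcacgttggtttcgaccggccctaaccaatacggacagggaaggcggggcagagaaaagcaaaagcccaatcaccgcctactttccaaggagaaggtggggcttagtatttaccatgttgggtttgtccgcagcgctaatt
Mmp7 held 5 matches: an AP-1 site at -63 to -57 from the start, 2 TATA boxes at -123 to -118 and -26 to -21, an ETS site and a MAF half-site at -183 to -178. Mmp12 held 1 ETS site, Mmp11 had 2 GC boxes, Timp1 had 2 ETS sites and 1 GC box, Timp3 had 1 of each, and Adamts17 had 0 matches. RefSeq windows were at hand for 32 of the 46 genes. The AP-1 letters were in 7 of these 32, all of them genes of the cluster that holds Mmp12 and Mmp7 (Mmp1a, Mmp1b, Mmp3, Mmp7, Mmp10, Mmp13 and Mmp20), and in 6.85% of all 27025 promoter windows of that length. Among the 18 genes with a window that were called higher in males, the AP-1 letters were in 2 (Mmp7 and Mmp13). Mmp1a, Mmp1b, Mmp3, Mmp10 and Mmp20 did not pass the filter on low counts. The MAF half-site was in 6 of the 32 and 15.8% of all windows, and among the 18 genes with a window that were called higher in males it was in 3 (Mmp7, Mmp13 and Mmp14). The TATA box was in 9 of the 32 and 13.0% of all windows, the ETS site in 13 and 29.2%, and the GC box in 16 and 33.0%. Among the same 18 genes, the TATA box was in 3, the ETS site in 7 and the GC box in 12. AP-1 and MAF half-site letters can share bases, and a match in letters says nothing of binding.

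Macrophage elastase, Mmp12, which cuts elastin and is best known from macrophages, was called higher in S64F/+ islets of both sexes. It stood at 17.98, 21.2, 26.3 and 21.9 CPM in male S64F/+ islets, against 1.77, 1.06, 4.16 and 1.98 CPM in male WT islets. The male Mmp12 log2 fold change was 3.28 ± 0.33 (SE; edgeR adjusted p = 1.44e-06). Female S64F/+ islets held 5.53, 6.79, 4.53, 7.90 and 8.45 CPM, against 1.29, 1.59, 1.85, 2.44 and 1.91 CPM in female WT islets. The female Mmp12 log2 fold change was 1.89 ± 0.28 (SE; edgeR adjusted p = 0.000106). In both sexes every S64F/+ library was above every WT library, and the female S64F/+ values lay below all male S64F/+ values and above all male WT values. The male effect exceeded the female one by 1.40 ± 0.41 on the log2 scale, which was not called (edgeR adjusted p = 0.0577).

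Matrilysin, Mmp7, a small secreted enzyme best known from ductal and glandular epithelium, was measured near the filter and passed it only through the male S64F/+ libraries. It had 1.48, 0.371, 1.09 and 2.20 CPM in male S64F/+, against 0.0553, 0.265, 0.0998 and 0.114 CPM in male WT islets. The male Mmp7 log2 fold change was 3.13 ± 0.81 (SE; edgeR adjusted p = 0.00709). In females it had 0.0861, 0.749, 0.540, 0.250 and 0.0366 CPM in S64F/+, against 0.126, 0.0590, 0.205, 0.0710 and 0 CPM in WT islets, with a log2 fold change of 1.75 ± 0.76 that was not called (edgeR adjusted p = 0.112). The male ranges were apart, by a small margin at male S64F/+ replicate 2, and the female ranges overlapped. The male call was kept in every refit that left out a library, with log2 fold changes of 2.76 to 3.76, and the female difference was called without female S64F/+ replicate 5 (log2 fold change 2.08; edgeR adjusted p = 0.0477).

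Mmp12 and Mmp7 lie at the same locus, a run of 10 Mmp genes within 427.1 kb at chr9:7272514-7699585 (GRCm38), in the order Mmp13, Mmp12, Mmp1b, Mmp3, Mmp1a, Mmp10, Mmp8, Mmp27, Mmp20 and Mmp7. Of these 10 only Mmp13, Mmp12 and Mmp7 passed the filter, Mmp7 only through the male S64F/+ libraries, and all 3 were called higher in male S64F/+ islets. Since 28 of all 34 genes tested were called higher there, beside 15.4% of all genes, these 3 calls cannot be read as particular to the run. Mmp13, a collagenase at one end of the run, had 1.498, 1.02, 1.52 and 0.636 CPM in male S64F/+, against 0.608, 0.601, 0.366 and 0.190 CPM in male WT islets. The male Mmp13 log2 fold change was 1.41 ± 0.37 (SE; edgeR adjusted p = 0.00760). Its female values of 0.473, 0.529, 0.623, 0.654 and 0.476 CPM in S64F/+ and 0.198, 0.443, 0.369, 0.260 and 0.378 CPM in WT islets did not overlap either, yet the female difference of 0.75 ± 0.33 (log2) was not called (edgeR adjusted p = 0.117). The 7 genes between or beside them held few reads: Mmp1a and Mmp1b, the mouse relatives of interstitial collagenase, had 0 counts in all 18 libraries. Mmp3 (stromelysin) had 19, 5, 14 and 29 counts in all in male S64F/+, male WT, female S64F/+ and female WT, and Mmp8 (neutrophil collagenase) had 15, 0, 1 and 0. Mmp10 had 15 counts in male WT, from replicates 2 and 3, 1 in male S64F/+ and 0 in both female groups. Mmp27 had 3 counts, all in male S64F/+, and Mmp20, an enamel enzyme, had 1, in female WT.

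**Figure D2:**
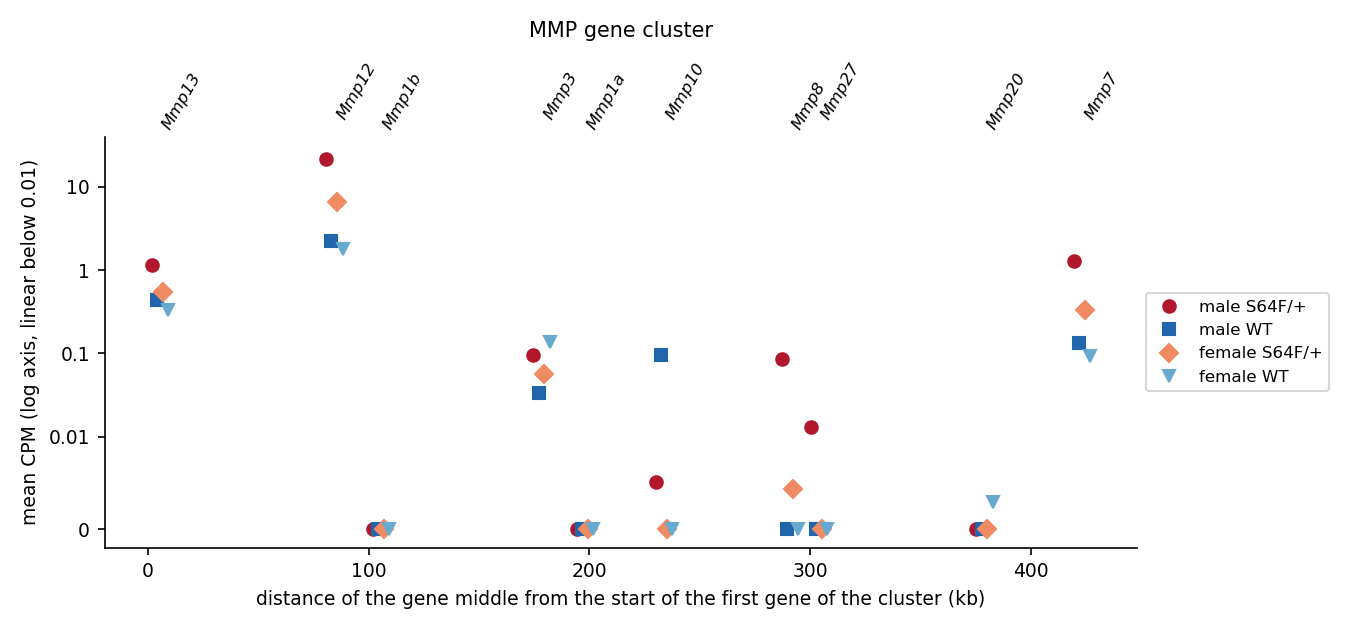
Mean CPM per group (y axis, logarithmic above 0.01 and linear below) of the 10 Mmp genes of the chromosome 9 run against the distance of each gene's middle from the start of the run in kb, with the 4 groups drawn slightly apart for each gene. Mmp12 is highest in all 4 groups, at 21.8 CPM in male S64F/+ and 2.24 CPM in male WT islets, and of the genes between Mmp12 and Mmp7 the highest mean is 0.136 CPM, of Mmp3 in female WT islets.

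The plot of the run shows that the male S64F/+ mean lies above the other 3 group means at both ends and at Mmp12, with few or no reads over the genes in between.

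Among the gelatinases, which cut denatured collagen and type IV collagen of basement membranes, Mmp2 carried the difference. Mmp2 had 33.8, 11.8, 17.7 and 13.2 CPM in male S64F/+, against 0.774, 4.19, 2.73 and 4.03 CPM in male WT islets. The male Mmp2 log2 fold change was 2.68 ± 0.72 (SE; edgeR adjusted p = 0.0115). The male ranges were apart, and male S64F/+ replicate 1 was well above the other 3; without it the log2 fold change was 2.26 (edgeR adjusted p = 0.0380). Female Mmp2 values of 6.33, 9.21, 13.5, 6.31 and 1.28 CPM in S64F/+ and 2.57, 8.54, 10.3, 2.94 and 1.75 CPM in WT overlapped, and the difference was not called (0.49 ± 0.61 log2; edgeR adjusted p = 0.623). Mmp9, the gelatinase of neutrophils, had 0.228, 0.0618, 1.14 and 0.367 CPM in male S64F/+ and 0.0553, 1.66, 0.0333 and 0.0380 CPM in male WT, a difference of -0.10 ± 1.00 on the log2 scale that was not called (edgeR adjusted p = 0.958). Male WT replicate 2 held nearly all Mmp9 reads of its group, and it was also the library with most of the Mmp10 reads.

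Stromelysin 3, Mmp11, an enzyme known from fibroblasts near epithelium and activated inside the cell by furin, was called in 4 of the 5 comparisons. It had 3.81, 2.87, 4.14 and 2.59 CPM in male S64F/+, against 0.663, 0.938, 0.466 and 0.532 CPM in male WT islets. The male Mmp11 log2 fold change was 2.35 ± 0.26 (SE; edgeR adjusted p = 3.55e-06). Female S64F/+ islets had 2.07, 2.69, 2.49, 2.36 and 2.14 CPM, against 0.945, 1.83, 1.27, 1.11 and 1.46 CPM in female WT. The female Mmp11 log2 fold change was 0.82 ± 0.22 (SE; edgeR adjusted p = 0.0109). The ranges were apart in both sexes. The male effect was larger by 1.53 ± 0.33 (log2; edgeR adjusted p = 0.0184, and 0.0515 without male WT replicate 4). Male S64F/+ exceeded female S64F/+ by 0.52 ± 0.22, which was not called (log2, edgeR adjusted p = 0.115). The larger part lay in the WT groups, where male WT was below female WT (-1.01 ± 0.25 log2; edgeR adjusted p = 0.0370). That last call was lost in 6 of 18 refits without 1 library, most clearly without male WT replicate 4 (edgeR adjusted p = 0.150), and with library-size scaling, no filter, separate fits or the replicate block.

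Of the membrane-type enzymes, which are anchored at the cell surface, Mmp14, Mmp15 and Mmp17 were called higher in male S64F/+ islets, while Mmp16 and Mmp24 were not called in males. Mmp14, a collagenase that also activates pro-Mmp2 together with Timp2, had 36.04, 23.5, 27.9 and 27.6 CPM in male S64F/+, against 4.92, 9.62, 11.3 and 9.92 CPM in male WT islets. The male Mmp14 log2 fold change was 1.68 ± 0.29 (SE; edgeR adjusted p = 0.000438). In females it had 15.5, 22.7, 16.3, 12.7 and 9.89 CPM in S64F/+, against 7.89, 13.4, 13.3, 7.41 and 6.52 CPM in WT, 0.67 ± 0.26 on the log2 scale and not called (edgeR adjusted p = 0.0753). The male ranges were apart and the female ranges overlapped. With same-numbered female libraries treated as pairs the female difference of Mmp14 was called (0.69 log2; edgeR adjusted p = 0.0298). It was also called with DESeq2 (adjusted p = 0.0284) and in 4 of 18 refits, those without female S64F/+ replicate 5, female WT replicate 2, female WT replicate 3 or male WT replicate 1, with log2 fold changes of 0.67 to 0.82.

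Mmp15, the most abundant membrane-type enzyme per length in male S64F/+ islets, had 57.5, 37.6, 38.8 and 33.8 CPM in male S64F/+, against 14.4, 18.4, 18.1 and 18.2 CPM in male WT. The male Mmp15 log2 fold change was 1.28 ± 0.18 (SE; edgeR adjusted p = 3.98e-05). Its female values were 23.5, 27.4, 26.9, 22.9 and 18.01 CPM in S64F/+ and 15.5, 23.9, 24.5, 18.5 and 24.02 CPM in WT, overlapping and not called (0.16 ± 0.16 log2; edgeR adjusted p = 0.523), and the male effect was larger by 1.12 ± 0.23 (log2; edgeR adjusted p = 0.0163). Mmp17, a lipid-anchored enzyme, had 3.08, 2.78, 2.90 and 2.69 CPM in male S64F/+, against 0.663, 1.68, 1.36 and 1.29 CPM in male WT. The male Mmp17 log2 fold change was 1.17 ± 0.41 (SE; edgeR adjusted p = 0.0408). That call was lost in 7 of 18 refits without 1 library, with the highest edgeR adjusted p of 0.117 without male WT replicate 1.

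Mmp24 and Mmp16, membrane-type enzymes known from brain, were not called higher in either sex. Mmp24 had 13.2, 14.6, 16.8 and 13.9 CPM in male S64F/+ and 14.4, 18.1, 15.1 and 16.6 CPM in male WT, and 15.2, 12.2, 10.8, 17.1 and 18.4 CPM in female S64F/+ and 11.9, 13.7, 14.9, 15.7 and 18.2 CPM in female WT islets. All 4 ranges overlapped, and the log2 fold changes of -0.14 ± 0.15 in males and -0.01 ± 0.14 in females were not called, with a sign that flips with library-size scaling in males and with RLE scaling in females. Mmp16 had 1.08, 0.838, 0.872, 0.807 and 0.733 CPM in female S64F/+, against 1.90, 1.62, 0.944, 1.54 and 2.57 CPM in female WT islets, a fall by 0.99 ± 0.27 on the log2 scale (SE; edgeR adjusted p = 0.0123), although 1 S64F/+ library lay above 1 WT library. In males it had 1.28, 0.649, 1.01 and 0.953 CPM in S64F/+ and 0.663, 1.47, 1.26 and 1.44 CPM in WT, not called (-0.32 ± 0.30 log2; edgeR adjusted p = 0.475).

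The remaining Mmp genes tested, Mmp19, Mmp23 and Mmp28, were called higher in male S64F/+ islets and not in females. Mmp23, a short membrane-bound enzyme, had 3.28, 2.25, 3.47 and 2.66 CPM in male S64F/+, against 1.05, 0.601, 0.532 and 0.950 CPM in male WT. The male Mmp23 log2 fold change was 1.92 ± 0.30 (SE; edgeR adjusted p = 0.000116). In females it had 0.968, 1.59, 1.91, 1.44 and 1.14 CPM in S64F/+ and 1.80, 2.01, 1.52, 1.44 and 0.850 CPM in WT, and the difference between the sexes of 2.05 ± 0.39 was the largest of the called ones (log2; edgeR adjusted p = 0.0110). Mmp19, which cuts basement membrane proteins, averaged 1.51 ± 0.564 CPM in male S64F/+ and 0.427 ± 0.0712 CPM in male WT (SD, n = 4 each). The male Mmp19 log2 fold change was 1.82 ± 0.47 (SE; edgeR adjusted p = 0.00759). Mmp28, an enzyme of epithelia also called epilysin, averaged 2.85 ± 0.578 CPM in male S64F/+ and 1.32 ± 0.621 CPM in male WT (SD, n = 4 each). The male Mmp28 log2 fold change was 1.09 ± 0.38 (SE; edgeR adjusted p = 0.0404); the call was lost in 6 of 18 refits, with the highest edgeR adjusted p of 0.118 without male WT replicate 4.

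All 3 tested inhibitors were called higher in male S64F/+ islets, so the TIMP side of the system changed in the same direction as the enzymes. Timp3, the matrix-bound inhibitor, had the highest level of the 46 genes and the smallest male p among them. It had 331, 313, 295 and 297 CPM in male S64F/+, against 97.4, 97.1, 95.0 and 75.1 CPM in male WT islets. The male Timp3 log2 fold change was 1.76 ± 0.17 (SE; edgeR adjusted p = 7.38e-07). Female S64F/+ islets had 134, 198, 145, 142 and 126 CPM, against 95.7, 115, 122, 64.7 and 88.2 CPM in female WT. The female Timp3 log2 fold change was 0.62 ± 0.15 (SE; edgeR adjusted p = 0.00539). The ranges were apart in both sexes, with replicate 2 alone at the top of the female S64F/+ group, and the male effect was larger by 1.14 ± 0.22 (log2; edgeR adjusted p = 0.0110).

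Timp2, the inhibitor that takes part in activating pro-Mmp2, had 116, 86.97, 79.6 and 69.7 CPM in male S64F/+, against 20.3, 35.1, 32.0 and 27.4 CPM in male WT islets. The male Timp2 log2 fold change was 1.61 ± 0.27 (SE; edgeR adjusted p = 0.000320). In females it had 45.2, 67.1, 65.7, 41.5 and 33.7 CPM in S64F/+ and 27.7, 49.7, 55.2, 29.3 and 35.8 CPM in WT, overlapping and not called (0.36 ± 0.23 log2; edgeR adjusted p = 0.306). Timp1, an inducible inhibitor encoded on the X chromosome, had 0.770, 1.14, 1.87 and 2.62 CPM in male S64F/+, against 0.221, 0.361, 0.333 and 0.228 CPM in male WT islets. The male Timp1 log2 fold change was 2.44 ± 0.53 (SE; edgeR adjusted p = 0.00210). Timp1 in females had 0.646, 1.59, 1.04, 0.346 and 0.824 CPM in S64F/+, against 0.315, 0.472, 0.0821, 0.260 and 0.0945 CPM in WT. The female Timp1 log2 fold change was 1.72 ± 0.46 (SE; edgeR adjusted p = 0.0122), with replicate 4 of S64F/+ below replicate 2 of WT. Timp4 did not pass the filter and had 53, 6, 12 and 24 counts in all in male S64F/+, male WT, female S64F/+ and female WT.

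**Figure D3:**
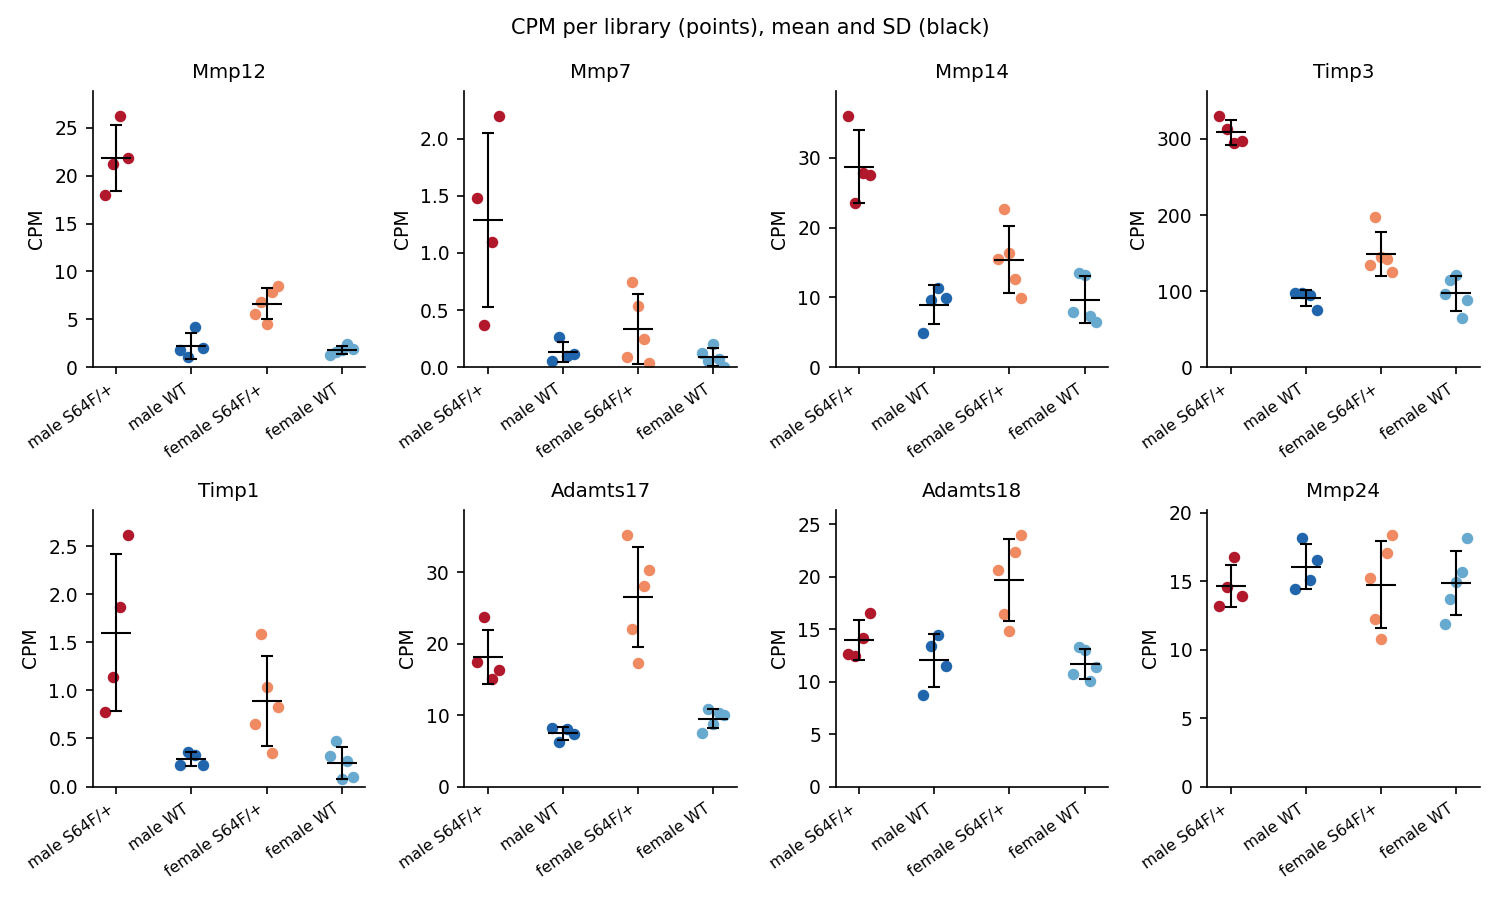
CPM of 8 genes (y axes, each from 0) in every library (points) of the 4 groups, with the mean and SD of the group in black. Mmp12 and Timp3 show S64F/+ above WT in both sexes and male S64F/+ highest, Adamts17 and Adamts18 are highest in female S64F/+, and the 4 ranges of Mmp24 overlap.

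The panels of single libraries show 3 patterns side by side: male ranges apart with overlapping female ranges (Mmp7, Mmp14, Timp1), a rise in both sexes that is larger in males (Timp3), and the reverse order of the S64F/+ groups for Adamts17 and Adamts18. Timp1 was called higher in females as well, although its female ranges overlapped, and its difference between the sexes was not called.

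The ADAMTS proteoglycanases cut versican, aggrecan and related core proteins. Of the 7 tested, 6 were called higher in male S64F/+ islets, where 15.4% of all genes were. In female S64F/+ islets 0 of 7 were called higher, where 10.2% of all genes were, and so few genes cannot be told from that share. Adamts1, which also binds angiogenic growth factor, had 46.95, 40.7, 61.7 and 53.4 CPM in male S64F/+, against 18.02, 20.5, 18.99 and 16.1 CPM in male WT. The male Adamts1 log2 fold change was 1.46 ± 0.19 (SE; edgeR adjusted p = 2.15e-05). In females it had 12.96, 15.03, 17.6, 27.99 and 20.4 CPM in S64F/+ and 16.02, 15.4, 19.4, 20.4 and 16.1 CPM in WT, with a log2 fold change of 0.11 ± 0.17 that was not called (edgeR adjusted p = 0.687). The male ranges were far apart, the female ranges overlapped, and the male effect was larger by 1.35 ± 0.25 (log2; edgeR adjusted p = 0.0103).

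Adamts9, a versican-cutting enzyme, had 18.7, 12.5, 12.2 and 14.01 CPM in male S64F/+, against 3.21, 4.43, 4.29 and 5.96 CPM in male WT. The male Adamts9 log2 fold change was 1.68 ± 0.18 (SE; edgeR adjusted p = 3.36e-06). Female values were 9.73, 9.13, 7.56, 9.57 and 6.98 CPM in S64F/+ and 5.93, 6.84, 7.22, 5.52 and 7.58 CPM in WT, overlapping and not called (0.38 ± 0.16 log2; edgeR adjusted p = 0.0997), and the male effect was larger by 1.30 ± 0.24 (log2; edgeR adjusted p = 0.00993). Adamts15 had 15.2, 8.12, 8.37 and 7.11 CPM in male S64F/+, against 1.22, 1.73, 2.59 and 1.82 CPM in male WT. The male Adamts15 log2 fold change was 2.39 ± 0.35 (SE; edgeR adjusted p = 7.17e-05). Replicate 1 stood well above the other male S64F/+ libraries, and the 4 values were all above the male WT range. The female values of Adamts15 were 2.86, 3.61, 3.57, 3.13 and 2.31 CPM in S64F/+ and 1.75, 2.18, 4.39, 1.14 and 1.77 CPM in WT, and its difference between the sexes of 1.91 ± 0.46 (log2; edgeR adjusted p = 0.0283) was lost in 4 of 18 refits, up to 0.0681 without male WT replicate 4.

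Adamts5, the main aggrecanase of mouse cartilage, had 6.83, 6.92, 6.79 and 5.57 CPM in male S64F/+, against 0.442, 0.986, 1.66 and 1.48 CPM in male WT islets. The male Adamts5 log2 fold change was 2.49 ± 0.53 (SE; edgeR adjusted p = 0.00203). In females it averaged 2.17 ± 1.20 CPM in S64F/+ and 1.75 ± 1.29 CPM in WT (SD, n = 5 each), and the difference was not called. Adamts4 had 0.842, 2.16, 3.14 and 2.93 CPM in male S64F/+, against 0.276, 1.13, 0.898 and 0.798 CPM in male WT. The male Adamts4 log2 fold change was 1.5 ± 0.43 (SE; edgeR adjusted p = 0.0144), with the lowest S64F/+ library below 2 WT libraries. Adamts8 averaged 1.16 ± 0.265 CPM in male S64F/+ and 0.353 ± 0.127 CPM in male WT (SD, n = 4 each). The male Adamts8 log2 fold change was 1.68 ± 0.52 (SE; edgeR adjusted p = 0.0220); without male WT replicate 1 the edgeR adjusted p was 0.0658, and the call was also lost without male S64F/+ replicate 1 and male WT replicate 4. Adamts20, the partner of Adamts9 in versican cleavage, had 1.24, 0.556, 0.568 and 0.587 CPM in male S64F/+ and 0.387, 0.313, 0.299 and 0.342 CPM in male WT, ranges apart but not called (1.16 ± 0.63 log2; edgeR adjusted p = 0.187). Adamts1 and Adamts5 are neighbours within 108.0 kb on chromosome 16, as are Adamts15 and Adamts8 within 64.7 kb on chromosome 9, and all 4 were called higher in male S64F/+ islets. So were 28 of all 34 genes tested, beside 15.4% of all genes, so these 4 calls cannot be read as particular to the loci.

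The 3 procollagen N-proteinases, which remove the amino propeptide of fibrillar procollagens before fibrils form, differed in how they passed the filter. Adamts2 passed it in all groups, whereas Adamts14 and Adamts3 passed it only through the male S64F/+ libraries, the group in which they were high. Adamts2 had 35.5, 18.96, 25.8 and 22.0 CPM in male S64F/+, against 2.82, 5.75, 9.08 and 8.81 CPM in male WT. The male Adamts2 log2 fold change was 1.94 ± 0.57 (SE; edgeR adjusted p = 0.0181). The call was lost without male WT replicate 1 (edgeR adjusted p = 0.0543) and without male S64F/+ replicate 1. Adamts14 had 1.20, 1.08, 2.29 and 1.27 CPM in male S64F/+, against 0.111, 0.168, 0.0333 and 0.190 CPM in male WT. The male Adamts14 log2 fold change was 3.49 ± 0.76 (SE; edgeR adjusted p = 0.00206). Adamts3, which also processes the lymphatic growth factor Vegfc, was low, with 0.342, 0.402, 0.466 and 0.342 CPM in male S64F/+ and 0.111, 0.120, 0.166 and 0.152 CPM in male WT. The male Adamts3 log2 fold change was 1.47 ± 0.52 (SE; edgeR adjusted p = 0.0430), and its call was lost in 8 of 18 refits, up to 0.101 without male WT replicate 2, and also with DESeq2 and with no filter. In females none of the 3 was called, and the log2 fold changes were 0.21 ± 0.49 for Adamts2, 1.16 ± 0.70 for Adamts14 and -0.81 ± 0.58 for Adamts3.

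Adamts7 and Adamts12 cut cartilage oligomeric matrix protein, and both were called higher in male S64F/+ islets. Adamts12 had 11.9, 7.38, 11.4 and 10.7 CPM in male S64F/+, against 0.774, 3.15, 2.63 and 2.28 CPM in male WT. The male Adamts12 log2 fold change was 2.20 ± 0.47 (SE; edgeR adjusted p = 0.00197). Adamts7 had 7.78, 4.08, 5.21 and 4.40 CPM in male S64F/+, against 1.27, 2.502, 2.06 and 1.82 CPM in male WT. The male Adamts7 log2 fold change was 1.47 ± 0.28 (SE; edgeR adjusted p = 0.000592). Female values overlapped for both, with log2 fold changes of 0.26 ± 0.40 for Adamts12 and 0.12 ± 0.24 for Adamts7. The difference of Adamts7 between the sexes of 1.35 ± 0.36 (log2; edgeR adjusted p = 0.0432) was lost in 13 of 18 refits without 1 library, up to 0.0984 without male S64F/+ replicate 1, and at 0.0794 with the replicate block.

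Adamts17 and Adamts18 were called higher in female S64F/+ islets than in female WT, and were the only genes of the 34 called lower in male than in female S64F/+ islets. In humans, changes in ADAMTS17 cause a short-stature and eye syndrome linked to fibrillin microfibrils, and ADAMTS18 is also an eye disease gene. Adamts17 had 17.5, 23.7, 15.1 and 16.3 CPM in male S64F/+, against 8.18, 6.23, 8.05 and 7.33 CPM in male WT. The male Adamts17 log2 fold change was 1.29 ± 0.19 (SE; edgeR adjusted p = 8.09e-05). Female S64F/+ islets held 35.2, 22.0, 17.3, 28.03 and 30.3 CPM, against 7.55, 10.8, 8.78, 10.3 and 9.97 CPM in female WT. The female Adamts17 log2 fold change was 1.49 ± 0.17 (SE; edgeR adjusted p = 6.09e-06). The ranges were apart in both sexes, and the male minus female difference of -0.20 ± 0.25 (log2) was not called (edgeR adjusted p = 0.655).

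Adamts18 had 20.6, 16.4, 14.8, 22.4 and 23.96 CPM in female S64F/+, against 10.7, 13.3, 12.96, 10.1 and 11.4 CPM in female WT. The female Adamts18 log2 fold change was 0.75 ± 0.15 (SE; edgeR adjusted p = 0.00127), with the ranges apart. In males it had 12.6, 12.4, 14.2 and 16.5 CPM in S64F/+ and 8.74, 13.4, 14.5 and 11.5 CPM in WT, overlapping and not called (0.21 ± 0.16 log2; edgeR adjusted p = 0.384), and the difference between the sexes of -0.55 ± 0.22 (log2) was not called either (edgeR adjusted p = 0.139). Adamts16, which is known from kidney and gonad development, had 4.85, 2.10, 1.36 and 2.62 CPM in male S64F/+, against 0.8293, 0.722, 0.432 and 0.342 CPM in male WT. The male Adamts16 log2 fold change was 2.24 ± 0.44 (SE; edgeR adjusted p = 0.000905). Adamts16 was not called in females (0.95 ± 0.38 log2; edgeR adjusted p = 0.0839).

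Adamts10 and Adamts6, a related pair that acts on fibrillin microfibrils and cell adhesion, differed in the male comparison: Adamts10 was called higher and Adamts6 was not called. Adamts10 had 28.3, 21.99, 18.9 and 21.6 CPM in male S64F/+, against 11.9, 17.3, 16.8 and 12 CPM in male WT. The male Adamts10 log2 fold change was 0.64 ± 0.17 (SE; edgeR adjusted p = 0.00991). Adamts6 had 11.2, 9.57, 11.9 and 10.7 CPM in male S64F/+ and 11.1, 10.2, 10.8 and 11.3 CPM in male WT, and 12.3, 11.1, 9.60, 12.2 and 13.6 CPM in female S64F/+ and 12.8, 13.4, 9.40, 10.9 and 10.8 CPM in female WT islets. All 4 ranges of Adamts6 overlapped, with log2 fold changes of -0.00 ± 0.12 in males (0.22 with library-size scaling) and 0.04 ± 0.11 in females and no call. Mmp9, Mmp24, Adamts6 and Adamts20 were called in none of the 5 comparisons.

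The 12 genes that did not pass the filter were Mmp1a, Mmp1b, Mmp3, Mmp8, Mmp10, Mmp20, Mmp21, Mmp25, Mmp27, Adamts13, Adamts19 and Timp4. Adamts13, the protease of von Willebrand factor, had 42, 2, 14 and 16 counts in all in male S64F/+, male WT, female S64F/+ and female WT, and Mmp25, a leukocyte membrane-type enzyme, had 45, 3, 36 and 38. Adamts19 had 38, 4, 36 and 25 counts in the same order, and Mmp21, known from left-right patterning, had 7, 1, 1 and 9. A count of 0 over the 4 male S64F/+ libraries allows a level of up to 0.0156 CPM and over the 4 male WT libraries up to 0.0259 CPM, and the limits are 0.0150 CPM for the 5 female S64F/+ and 0.0104 CPM for the 5 female WT libraries. These limits cover counting error only.

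Levels were compared between genes as CPM per kilobase of merged exons. In male S64F/+ islets Timp3 (37.9 ± 2.02) and Timp2 (22.6 ± 5.07) stood first, followed by Adamts1 (9.56 ± 1.70), Mmp15 (7.77 ± 1.97), Mmp2 (5.67 ± 3.00) and Mmp14 (4.83 ± 0.880; SD, n = 4, CPM per kb). In male WT islets the order was Timp3 (11.2 ± 1.32), Timp2 (7.37 ± 1.65), Adamts1 (3.47 ± 0.347), Mmp24 (3.43 ± 0.352) and Mmp15 (3.20 ± 0.358; SD, n = 4, CPM per kb). The last 3 of these differed by less than their spread. In male S64F/+ islets Mmp2 differed by less than its own spread from its neighbours in the order, Mmp15 and Mmp14. In female S64F/+ islets Timp3 (18.3 ± 3.48) and Timp2 (13.0 ± 3.85) were followed by Mmp15, Adamts1 and Adamts17, and in female WT islets Timp3 (11.9 ± 2.78) and Timp2 (10.2 ± 3.17; SD, n = 5 each, CPM per kb) by Mmp15, Adamts1 and Mmp24. Timp3 and Timp2 differed by less than their spread in female WT islets. Mmp12 ranked 8 of the 46 in male S64F/+ and 16 in male WT islets, Mmp2 ranked 5 and 11, and Mmp7 ranked 17 and 27.

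**Figure D4:**
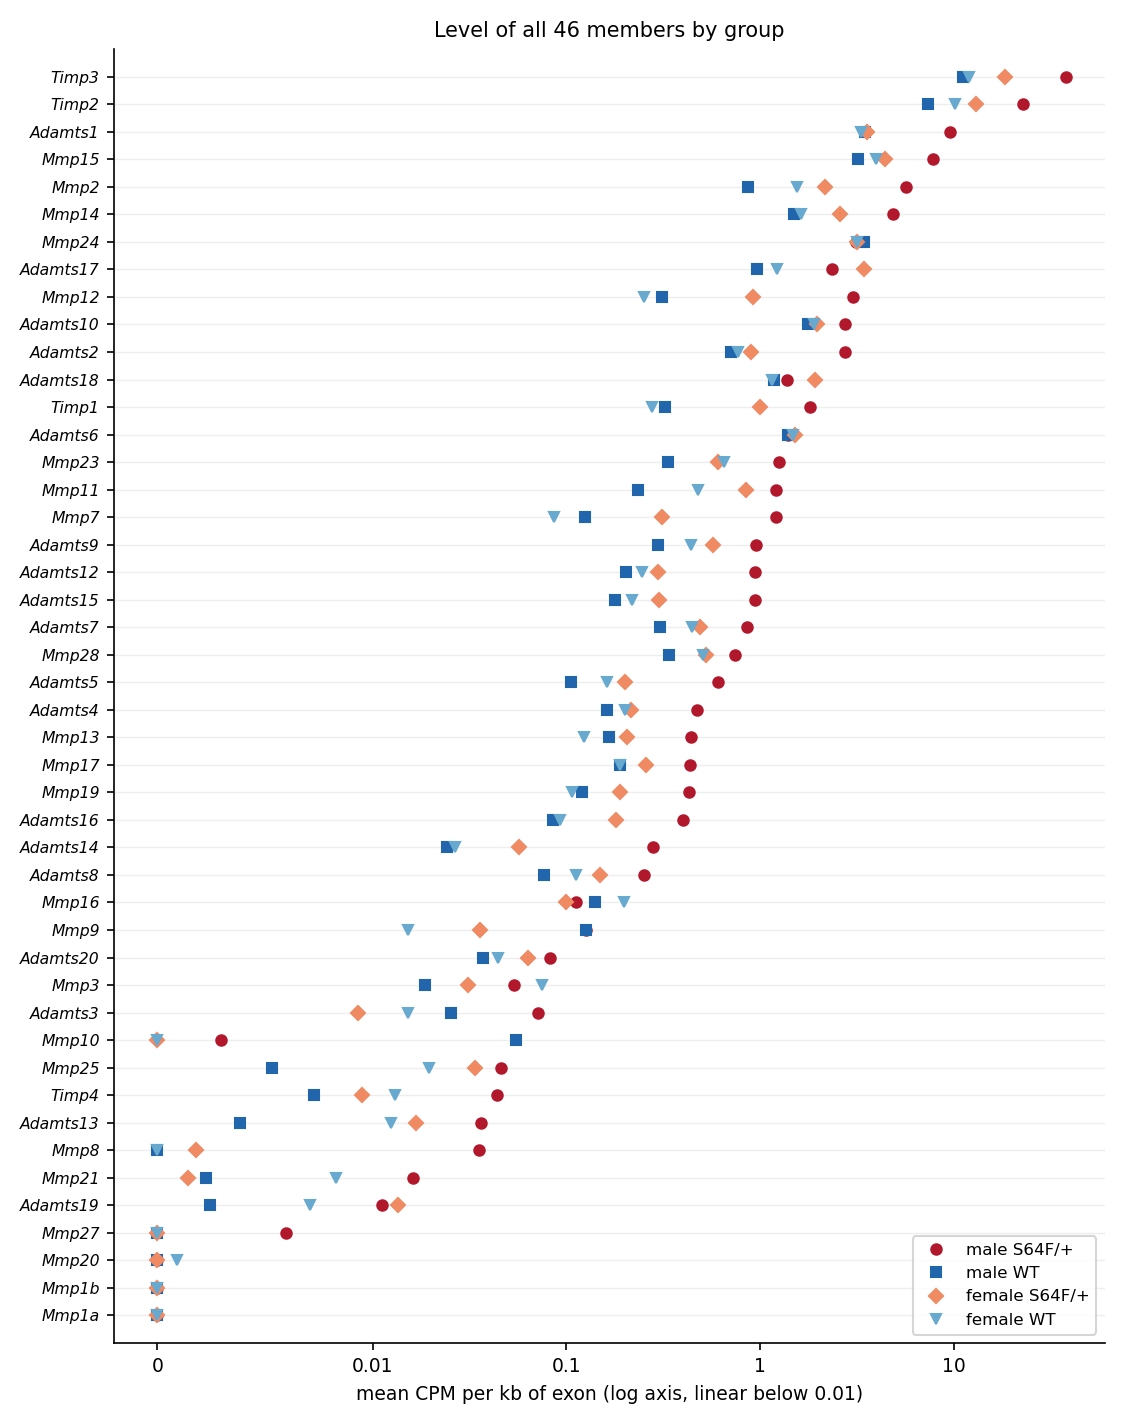
Mean level of all 46 genes as CPM per kb of exon (x axis, logarithmic above 0.01 and linear below) in the 4 groups, ordered by each gene's highest group mean. Timp3 and Timp2 lead in every group, at 37.9 and 22.6 CPM per kb in male S64F/+ and 11.2 and 7.37 CPM per kb in male WT islets, and Mmp1a and Mmp1b are at 0.

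Summed over each family, the MMP genes came to 30.5 ± 6.21 CPM per kb in male S64F/+ and 11.2 ± 1.94 in male WT islets (SD, n = 4 each), and to 16.4 ± 2.75 in female S64F/+ and 13.0 ± 2.67 in female WT islets (SD, n = 5 each). The ADAMTS genes came to 26.0 ± 2.47 in male S64F/+ and 11.0 ± 1.22 in male WT, and to 15.8 ± 0.991 in female S64F/+ and 11.8 ± 1.49 in female WT islets. The TIMP genes came to 62.4 ± 6.20 in male S64F/+ and 18.9 ± 2.30 in male WT, and to 32.3 ± 7.31 in female S64F/+ and 22.4 ± 5.71 in female WT islets. Timp2 and Timp3 together made up 51.0% ± 3.15 of the summed level of the 46 genes in male S64F/+, 45.3% ± 2.66 in male WT, 48.1% ± 3.46 in female S64F/+ and 46.4% ± 3.28 in female WT islets, and the 4 ranges of this share overlapped. The plot of levels places each gene in this order.

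Between the sexes, most called differences lay in the S64F/+ groups. Male S64F/+ islets had 19 of the 34 genes called higher than female S64F/+ islets, where 8.00% of all genes were, and Adamts17 and Adamts18 called lower, where 8.12% of all genes were. Among the genes that did not need male S64F/+ libraries to pass the filter, the largest of these differences was that of Mmp12 (1.71 ± 0.28 log2; edgeR adjusted p = 0.00113). Adamts3 (2.98 ± 0.54 log2), Adamts14 (2.47 ± 0.64) and Mmp7 (2.09 ± 0.69) passed the filter only through male S64F/+, so their size is favoured by it. The call of Mmp7 (edgeR adjusted p = 0.0452) was lost in 11 of 18 refits without 1 library, with no filter, in separate fits and with the replicate block, and that of Adamts14 without male S64F/+ replicate 3. Of these 21 calls, 9 held in every refit without 1 library and 12 did not. The lower values of Adamts17 (-0.55 ± 0.18 log2; edgeR adjusted p = 0.0404) and Adamts18 (-0.50 ± 0.16 log2; edgeR adjusted p = 0.0374) were not called with library-size scaling, with no filter, in separate fits or with the replicate block. The ranges of male and female S64F/+ islets were apart for 14 genes, all higher in males, beside 7.91% of all genes higher and 8.27% lower. In WT islets Mmp11 was the 1 gene of the 34 called between the sexes, lower in males, where 0.637% of all genes were called lower and 2.36% in either direction. Its ranges were apart, as were those of 3.25% of all genes that were lower in male WT and 4.21% that were higher. Though not called, Mmp23 (-0.99 ± 0.29), Adamts9 (-0.56 ± 0.17) and Adamts7 (-0.54 ± 0.26 log2) were also lower in male WT. These WT differences form part of their called differences in genotype effect. Of the genes with such a call, only Adamts1 was higher in male WT (0.08 ± 0.18 log2, not called).

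Markers of the other cells in an islet preparation moved with these genes. Beside the marker counts below, 15.4% of all genes tested were called higher and 12.3% lower in males. In females 10.2% were called higher and 11.0% lower. The 14 stellate cell and fibroblast markers summed to 1625 to 2454 CPM in male S64F/+, against 236 to 569 CPM in male WT islets, and 13 of 14 were called higher, among them Cspg4 (1.30 ± 0.18 log2) and Pdgfrb (1.58 ± 0.23 log2). In females the same markers summed to 275 to 1103 CPM in S64F/+, against 318 to 879 CPM in WT islets, and 0 of 14 were called. The 12 endothelial markers summed to 1006 to 1210 CPM in male S64F/+, against 541 to 760 CPM in male WT, with 9 of 12 called higher, led by Pecam1 (1.56 ± 0.16 log2) and Tie1 (0.92 ± 0.15 log2), and to 668 to 964 CPM in female S64F/+, against 638 to 890 CPM in female WT, with 0 called.

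The 14 macrophage markers summed to 141 to 187 CPM in male S64F/+, against 97.5 to 139 CPM in male WT, with 8 called higher, led by Cd68 (1.65 ± 0.15 log2) and C1qb (1.24 ± 0.15 log2), and C1qa called lower. C1qa alone averaged 37.7 ± 4.88 CPM in male S64F/+ and 68.7 ± 17.6 CPM in male WT islets (SD, n = 4 each). It therefore weighed heavily in the male sums and narrowed their difference. In females the 14 markers summed to 112 to 199 CPM in S64F/+, against 88.2 to 127 CPM in WT, with 6 called higher, led by Cd68 (0.97 ± 0.13) and C1qb (0.88 ± 0.13 log2). The 12 ductal markers summed to 1140 to 1295 CPM in male S64F/+, against 764 to 865 CPM in male WT, with 8 called higher, and to 859 to 1044 CPM in female S64F/+, against 721 to 858 CPM in female WT, with 5 called higher; Spp1 (2.67 ± 0.22 in males and 1.37 ± 0.19 in females, log2) and Sox9 (2.03 ± 0.24 and 0.95 ± 0.21) led in both sexes. Schwann cell markers summed to 76.9 to 88.2 CPM in male S64F/+, against 33.8 to 38.0 CPM in male WT, and to 50.6 to 108 CPM in female S64F/+, against 30.8 to 47.4 CPM in female WT. Of their 8 genes 4 were called higher in males, led by Gfra3 (1.36 ± 0.15 log2) and Gfap (2.29 ± 0.63 log2), and Gfra3 in females (1.35 ± 0.14 log2). Neutrophil markers, of which 2 of 8 were tested, summed to 0.7103 to 2.35 CPM in male S64F/+, against 0.0333 to 1.01 CPM in male WT, with Cxcr2 called higher (4.30 ± 1.08 log2), and to 0.202 to 1.87 CPM in female S64F/+, against 0.165 to 0.280 CPM in female WT. Cxcr2 averaged 0.411 CPM in male S64F/+ and 0.0276 CPM in male WT. Its mean was above the filter of about 0.236 CPM only in male S64F/+, so its size is favoured by the filter. Mast cell and eosinophil markers summed to 13.0 to 19.5 CPM in male S64F/+, against 7.13 to 11.7 CPM in male WT, and to 14.7 to 26.1 CPM in female S64F/+, against 10.6 to 18.1 CPM in female WT. Nearly all of that was Kit, the 1 gene of the list tested and called higher in males (0.73 ± 0.21 log2), and Fcer1a was at 0 in all libraries.

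Markers of the hormone cells differed too. Of 8 beta cell markers 7 were called lower in male S64F/+ and 6 in female S64F/+ islets, led by Mafa in both sexes (-2.20 ± 0.22 log2 in males). Mafa is the gene that carries the variant, and the list also holds insulin genes, which MafA activates. The calls on this list therefore cannot be read as a change in beta cell number. Alpha cell markers were called in 0 of 6 in males and higher in 6 of 6 in females, led by Gcg (1.00 ± 0.13 log2) and Irx2 (0.80 ± 0.12 log2). Of 4 delta cell markers 3 were called higher in males, led by Hhex (0.98 ± 0.17 log2), and 4 in females, led by Rbp4 (1.15 ± 0.11 log2), and 0 of 11 acinar markers were called in either sex. The part of these cells in the protease and inhibitor differences was not tested.

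**Figure D5:**
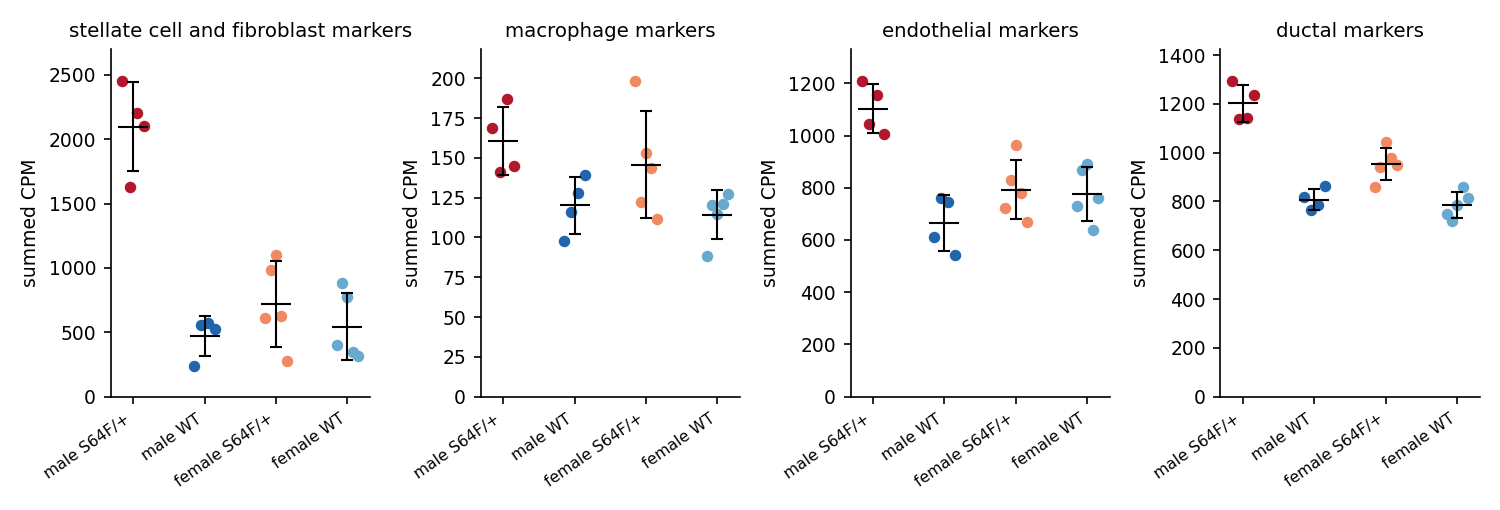
Summed CPM of the markers of 4 cell types (y axes, each from 0) in every library (points), with the mean and SD of each group in black. The stellate cell and fibroblast sum is 1625 CPM or more in male S64F/+ and 1103 CPM or less in the other 3 groups, and the macrophage sums lie between 88.2 and 199 CPM in all groups. Within the macrophage sums C1qa alone averages 37.7 CPM in male S64F/+ and 68.7 CPM in male WT islets, against the direction of most of that list.

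Within the groups, the library with the lowest stellate cell and fibroblast sum held the lowest value of 15 of the 34 genes in male S64F/+ islets (replicate 2), where it held the lowest value of 25.7% of all genes tested. In male WT islets the library lowest in these markers (replicate 1) was lowest for 21 of the 34, beside 33.1% of all genes. The corresponding library of female S64F/+ islets (replicate 5) was lowest for 20 of the 34, beside 19.2% of all genes. In female WT islets it was replicate 5, lowest for 7 of the 34, beside 16% of all genes, while 11 genes were lowest in replicate 4 and 10 in replicate 1. At the upper end, the pair of libraries with the highest fibroblast sums was also the highest pair for 14 genes in male S64F/+, 12 in male WT, 19 in female S64F/+ and 14 in female WT islets. In male WT islets replicate 3 had the highest fibroblast sum, and 8 of the 34 genes were highest there and 17 in replicate 2. The share over all genes was not computed for these upper-end counts, nor for replicates 4 and 1 of female WT. Those counts therefore cannot be read as particular to the 34 genes. Mmp12 had its highest value of female S64F/+ islets, 8.45 CPM, in replicate 5. As the plot of marker sums shows, male S64F/+ stands above the other 3 groups for the stellate cell and fibroblast, endothelial and ductal sums, while its macrophage sums overlap those of female S64F/+.

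Genes that act on the same matrix were read from fixed lists. Their counts stand beside 15.4% of all genes called higher and 12.3% lower in males, and 10.2% higher and 11.0% lower in females. Most lists are short, so small counts cannot be told from these shares. Of 18 tested matrix substrates, 12 were called higher in male S64F/+ islets and 0 lower, with a median log2 fold change of 1.83, and the smallest p values belonged to Hapln1 (0.98 ± 0.17), a link protein of hyaluronan and proteoglycans, and Thbs1 (1.90 ± 0.35), thrombospondin. In females 1 of 18 was called, Hapln1 (1.47 ± 0.15). Of 9 tested activating proteases, 4 were called higher and 1 lower in males and 3 higher and 2 lower in females, with Plat, the tissue plasminogen activator, at 2.87 ± 0.15 in males and 1.72 ± 0.13 in females, and St14 (matriptase) at 0.60 ± 0.08 and 0.45 ± 0.08 in males and females.

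Other inhibitors and clearance receptors had 6 of 10 called higher in males, led by Serpine2 (1.11 ± 0.16) and Lrp1 (1.20 ± 0.19), an uptake receptor for proteases, and 3 higher and 1 lower in females, led by Serpine2 (0.85 ± 0.14) and Spock3 (0.91 ± 0.22). Among 11 tested ADAM proteases, the membrane-bound relatives, 6 were called higher and 1 lower in males, led by Adam8 (1.94 ± 0.23) and Adam12 (1.28 ± 0.23), and 2 higher and 1 lower in females, led by Adam22 (-0.71 ± 0.12) and Adamdec1 (5.53 ± 1.19). ADAMTS-like proteins, which lack the protease domain, had 2 of 7 called higher and 1 lower in males, led by Adamtsl4 (1.98 ± 0.34) and Adamtsl1 (2.41 ± 0.64), and in females only Thsd4 was called, lower (-1.04 ± 0.26). Of 11 tested AP-1 and ETS transcription factors, whose known sites are among those marked in the promoter sequences, 5 were called higher in males, led by Fosl2 (1.59 ± 0.20) and Etv4 (3.09 ± 0.45), and 2 in females, Etv1 (0.75 ± 0.09) and Etv4 (1.64 ± 0.38); all values in these lists are log2 fold changes with SE.

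Some of these genes share exon sequence with a gene on the other strand, and since the strand setting of the counting is not given, reads there cannot be assigned with certainty. Timp3 lies inside Syn3 and shares 1733 bases, 21.3% of its exons, with it, but Syn3 averaged 2.5 CPM in male S64F/+ and 1.5 CPM in male WT islets, far under Timp3. Mmp19 shares 22.3% of its exons with Tmem198b, which averaged 8.12 CPM in male S64F/+ and 6.58 CPM in male WT islets, above Mmp19 itself. Mmp24 shares 13.6% with BC029722, at 35.3 CPM in male S64F/+ and 39.1 CPM in male WT, also above Mmp24. Mmp7 shares 11.5% with AV064505, which had a mean of 0 CPM in both male groups, and Mmp12 shares 157 bases with Mmp1b, which had no reads. Timp1 lies inside Syn1 and shares 0 exonic bases with it.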

How the data were processed

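RNA of whole islets was isolated on columns, kept where its integrity number exceeded 8.0, and read as paired 150-nucleotide ends on a NovaSeq6000, per the labels' protocols. The authors deposited raw counts per gene and library. The submitters' processing notes name the GRCm38 build and, without versions or roles, STAR, featureCounts, FastQC, MultiQC and DESeq2. The annotation and strand setting were not given in the labels. FPKM values were deposited as well. For each of the 33562 genes with reads they matched the count over the library total and over 1 length per gene (within 0.1 base). Since those lengths exceed the merged GENCODE M21 exons for many genes, levels between genes were computed as CPM per kb of merged exons. Of the 53900 features listed, 99 spike-ins were at 0 and were left out.

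Counts were tested in R 4.3.3 with edgeR 4.0.16 (filterByExpr by group with a minimum count of 10 and a minimum total of 15, trimmed-mean scaling, robust quasi-likelihood). A single model held all 18 libraries, with 1 coefficient per group. P-values were two-sided and adjusted by Benjamini-Hochberg over 18364 genes, with a threshold of 0.05. The SE is the size of the log2 fold change divided by the square root of F. The filter lay at about 0.236 CPM. The biological coefficient of variation was 24.4%, and replicates differed beyond counting noise (chi-square per degree of freedom 21.7 or more). A floor is 3 counts over a group. The script was tested on simulated data.

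The genes, the related lists, the marker lists and the alternatives were chosen with earlier results of these data known. Genes given with values are those called in any of 5 comparisons, Mmp7, Mmp12, and uncalled ones with a mean of at least 10 CPM. Mmp9, Adamts20 and the genes not tested were named after their values were seen. From each list the 2 called genes with the smallest p per sex were named. Sample titles gave the groups and replicate numbers. The correlation of deviations between same-numbered S64F/+ and WT libraries was 0.110 to 0.418 for the 5 female numbers and -0.249 to 0.189 for the 4 male ones. For differently numbered libraries it ranged from -0.389 to 0.494 in females and from -0.408 to 0.552 in males. The counts and labels therefore do not settle whether a number pairs libraries. The main model held no pairing, and pairing by number (the replicate block) was run only as an alternative. The alternatives were library-size and RLE scaling, DESeq2 1.42.0, no filter, a stricter filter, separate fits per sex or genotype, the replicate block, and leaving out each library in turn.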

Additional observations from a re-analysis of the deposited data

Results flagged for a closer look

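In 8 of 136 groups of libraries of a tested gene, the highest or lowest library lay farther from its neighbour than a Dixon test at 95% allows, where chance gives about 1 in 20. In male S64F/+ islets these were Adamts14 with 2.29 CPM in replicate 3 and 1.27 CPM in the next library, Adamts15 with 15.2 CPM in replicate 1 and 8.37 CPM in the next, Adamts20 with 1.24 CPM in replicate 1 and 0.587 CPM in the next, and Adamts5 with a low 5.57 CPM in replicate 4 and 6.79 CPM in the next. In female S64F/+ islets Timp3 had 198 CPM in replicate 2 and 145 CPM in the next library. In male WT islets Mmp15 had a low 14.4 CPM in replicate 1 and 18.1 CPM in the next library, and Timp3 had a low 75.1 CPM in replicate 4 and 95.0 CPM in the next. Mmp9 had 1.66 CPM in male WT replicate 2 and 0.0553 CPM in the next library.

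The genotype effect differed between the sexes by a test of the difference itself for 8 genes, each with a larger male effect. The log2 differences of male minus female effect were 2.05 for Mmp23, 1.91 for Adamts15, 1.53 for Mmp11, 1.35 for Adamts7, 1.35 for Adamts1, 1.30 for Adamts9, 1.14 for Timp3 and 1.12 for Mmp15. Their edgeR adjusted p lay between 0.00993 and 0.0432. The female log2 fold change was above 0 for 7 of the 8, of which Mmp11 and Timp3 were called, and was -0.13 and not called for Mmp23.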

How the results depend on the processing

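Library-size scaling moved the median log2 fold change of all genes to 0.19 in males, against -0.03 with trimmed-mean scaling. It moved the median to 0.25 in the difference between the sexes and to 0.18 between the S64F/+ groups. The counts of these genes called higher in males (21 to 29) and in females (5 to 9) stayed within 1.5 times the reported ones. The difference between the sexes was called positive for 13 genes with DESeq2 and for 5 to 12 without 1 library. In male WT against female WT, 0 genes were called lower with library-size scaling, no filter, separate fits or the replicate block, 3 with DESeq2, and 0 to 1 without 1 library. In male S64F/+ against female S64F/+, 11 genes were called higher with no filter and 10 to 20 without 1 library. In that comparison 0 genes were called lower with library-size scaling, no filter, separate fits or the replicate block, and 0 to 2 without 1 library.

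With the replicate block, 28 genes were called higher in males and 7 in females. The labels do not say that a replicate number pairs libraries in either sex. The block gained the call of Mmp14 in female S64F/+ against female WT and lost that of Adamts7 in the difference between the sexes. In male S64F/+ against female S64F/+ it lost Adamts7, Adamts17, Adamts18, Mmp7 and Mmp13. For comparisons between the sexes the block gave same-numbered male and female libraries a shared effect, for which the labels give no ground. Calls lost there do not show what a true pairing would do.

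Signs changed for uncalled log2 fold changes near 0. In males Mmp24 was 0.081 with library-size scaling. Male Adamts6 was 0.22 with library-size scaling, 0.013 with RLE scaling, 0.018 with DESeq2, 0.0041 with no filter, 0.016 with the stricter filter, 0.011 in separate fits and -0.046 to 0.053 without 1 library. In females Mmp24 was 0.0011 with RLE scaling, 0.0051 with DESeq2, 0.0081 with no filter and -0.098 to 0.086 without 1 library. Without 1 library, female Adamts2 ranged over -0.039 to 0.55, Adamts6 over -0.025 to 0.10, Adamts1 over -0.080 to 0.22 and Adamts10 over -0.030 to 0.16.

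Over all genes, 821 were called in the difference between the sexes, against 1912 by DESeq2, 481 with no filter, 253 without male WT replicate 4 and 2152 without female S64F/+ replicate 1. The cause of these changes was not tested. Of 1903 comparisons over 77 results of single genes, 1710 kept direction and side of the threshold, 161 lost the call, 7 gained one and 25 changed sign. Genes under about 0.236 CPM could not be tested at this depth.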

Other observations

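Male WT replicate 2, which held most Mmp9 and Mmp10 reads of its group, also had the highest neutrophil marker sum of the 4 male WT libraries, at 1.01 CPM, with 0.719 CPM in replicate 1, 0.0333 CPM in replicate 3 and 0.0760 CPM in replicate 4. Mmp9 was likewise highest in male S64F/+ replicate 3 (1.14 CPM), while the neutrophil sum of that group was highest in replicate 4 (2.35 CPM), where Mmp8, the neutrophil collagenase, also had its highest value (0.220 CPM).

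The length behind the deposited FPKM values departed widely from the merged exons for some of these genes. It was 37148 bases for Adamts10, whose merged exons hold 8254 bases, and 33150 bases for Adamts6 (7798 merged), but 1068 bases by both measures for Mmp7 and 2673 by both for Mmp13. Ratios between groups are unaffected by a length that is fixed per gene, and the order of levels between genes is not.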
